A study of Mus musculus with 22 samples.

Results

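Tumours that lacked Smarcb1 were compared by the source of the Cre recombinase named in their titles: 3 tumours labelled Myf5Cre (tags N30, N31 and N33) against 5 labelled TATCre (N1, N49, N43L, N43R and N51). They are 8 of the 22 tumours of a mouse series that also holds tumours with the SS18-SSX fusion gene. Group membership was taken from the titles. All 8 carried the genotype label SNF5-/- (Snf5 is an older name of Smarcb1), none of them carried SS18-SSX, and the rest of the series served to estimate the spread in a common model. The combined tumours, which carried SS18-SSX+/- and SNF5-/- together, had the same pair of Cre labels (4 Myf5Cre and 4 TATCre) and were used for 1 comparison. The tumours with SS18-SSX alone have column names with other leading numbers than the Snf5-null and combined tumours. RNA came from fresh-frozen whole tumours, whose age, sex and body site are not given in the labels, so fewer cells of a type and less RNA per cell cannot be told apart. N43L and N43R share a tag, and the labels do not state that the others came from separate animals, so p-values speak only of the spread between these libraries, part of which may be technical.

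Myf5Cre is expressed from the Myf5 gene, which is switched on in progenitors of skeletal muscle and in some other mesodermal cells of the embryo, so deletion follows the descendants of those cells wherever they go. TATCre is a Cre protein fused to a short basic peptide that carries it into cells, and it deletes in whatever cells it reaches. Smarcb1 makes a shared subunit of SWI/SNF, a complex that moves nucleosomes, and is a tumour suppressor lost in malignant rhabdoid tumours. Hox genes, transcription factors in 4 clusters, record position along the body and along the limb, with low paralogue numbers near the head and trunk and high numbers towards the tail and limb tip, and mesenchymal cells tend to keep this record in the adult.

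Levels are given in CPM, counts scaled to a common library size after trimmed mean of M values (TMM) adjustment. In lists of values the order is N30, N31, N33 for Myf5Cre and N1, N49, N43L, N43R, N51 for TATCre. Calls are genes with an adjusted p below 0.05 in edgeR's quasi-likelihood test, by Benjamini-Hochberg over 18929 genes. Fold changes are log2, Myf5Cre over TATCre, each ± its SE. An adjusted p given without a library is that of the same test refitted without it, and is given where it ended the call. Total counts were 16059420 to 20412531 in Myf5Cre and 17138825 to 21807838 in TATCre libraries. The share of mitochondrial counts was 1.68 to 3.21% in Myf5Cre and 2.66 to 4.56% in TATCre libraries (exact two-sided permutation p = 0.107, 56 splits, smallest possible p 0.0179). The TMM factor was 0.967 to 0.997 in Myf5Cre and 0.879 to 0.963 in TATCre libraries (exact permutation p = 0.0357).

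One TATCre library stood apart from its group. Over all tested genes N1 correlated at r = 0.912 to 0.915 with the 3 Myf5Cre libraries and at 0.867 to 0.88 with the other TATCre libraries, which correlated among themselves at 0.941 to 0.976. The Myf5Cre libraries correlated among themselves at 0.942 to 0.981 and with the TATCre libraries other than N1 at 0.859 to 0.909 (across genes, which do not stand for replicates). Within each group 1 pair was closest, N31 with N33 (0.981) and N43L with N43R (0.976). The counts of both pairs differed by far more than sampling noise (63.3 and 51.5 times the Poisson variance on average). That measure cannot tell separate tumours from parts of the same tumour or animal. Each library was kept as 1 sample, and fits with a pair summed are given below. Results are given with N1 and, where it matters, without it.

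**Figure D1:**
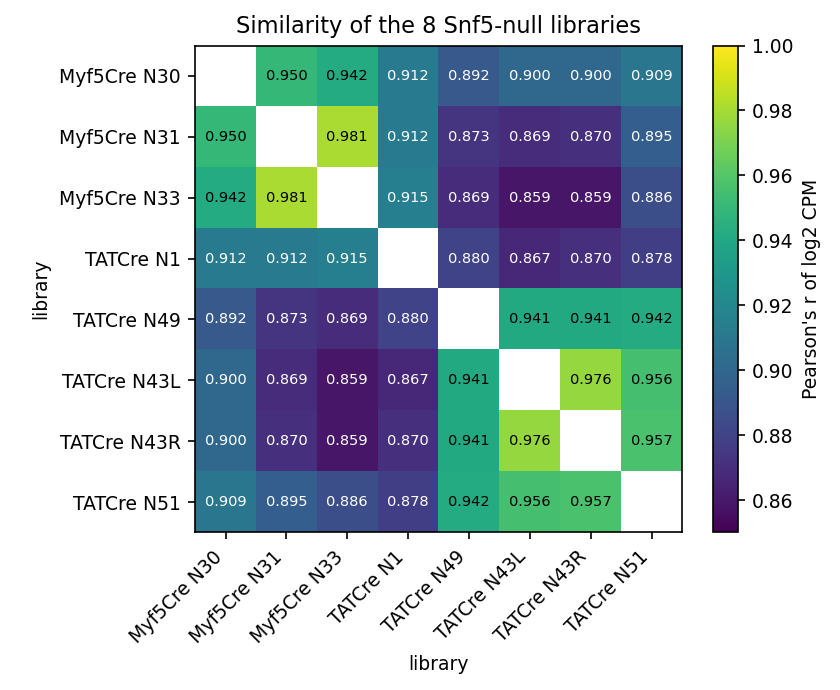
Pearson's r of log2 CPM over all tested genes for each pair of the 8 Snf5-null libraries, Myf5Cre first on both axes. TATCre N1 is nearer to the Myf5Cre libraries (0.912 to 0.915) than to the other TATCre libraries (0.867 to 0.88).

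Myf5 itself, a transcription factor that starts the myogenic programme and the gene from which this Cre is driven, was at 99.5, 135 and 122 CPM in Myf5Cre, against 269.9, 5.51, 0.22, 0.218 and 2.93 CPM in TATCre tumours. It was high in all 3 Myf5Cre tumours and highest of all in TATCre N1, so the groups overlapped (log2 fold change 1.09 ± 2.06, adjusted p = 0.839, or 5.79, adjusted p = 0.104, without N1). Smarcb1 (chromosome 10, 75896769 to 75921617, minus strand, GRCm38) was low in both groups, at 18.8, 10.6 and 11.9 CPM in Myf5Cre, against 15.5, 13.2, 16.4, 26.9 and 13.7 CPM in TATCre tumours (log2 fold change -0.32 ± 0.30, adjusted p = 0.626), where the 6 SS18-SSX tumours that kept the gene had 47.1 to 111 CPM. The remaining reads cannot be set apart by exon. Those SS18-SSX tumours have column names with other leading numbers than the Snf5-null tumours. Genotype and number series therefore cannot be told apart in this comparison of Smarcb1 levels. Xist, expressed from the inactive X chromosome, was at 1477, 560.3 and 931 CPM in Myf5Cre, against 604, 732, 44, 1.42 and 1128 CPM in TATCre tumours. Ddx3y, a Y-linked helicase gene, was at 0.621, 0.0498 and 0.375 CPM in Myf5Cre, against 3.95, 26.9, 143, 48.6 and 0 CPM in TATCre tumours. The Myf5Cre tumours thus carried Xist with little Y-linked RNA, N43R carried Y-linked RNA with little Xist, and N49 and N43L carried both. Of the 5 sex-linked genes tested 0 were called, or 2 lower without N1.

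Between the Cre labels 337 genes were called higher in Myf5Cre tumours (1.78% of the genes tested) and 603 lower (3.19%), and 3824 had an unadjusted p below 0.05. Without N1 877 were higher (4.65%) and 1082 lower (5.74%), including 928 of the first 940. Of the 1959 genes called without N1, N1 itself lay nearer the Myf5Cre mean in 1327 (67.7%). The number of calls rested on N31 and N33: without N31 66 genes were higher and 56 lower, and without N33 82 were higher and 56 lower, whereas without N30 the counts were 236 and 322. Without 1 TATCre library other than N1 the counts were 168 to 307 higher and 345 to 492 lower, lowest without N43L and N43R. With N43L and N43R summed to 1 sample 185 were higher and 374 lower, and with N31 and N33 summed 74 and 50. No called gene changed direction in any of 15 alternatives in which it was tested. In all 15 of them 87 of the 940 genes were called. List counts below stand beside the shares over all genes tested, 1.78% called higher and 3.19% called lower. Over all genes tested 8.38% were above every TATCre library in each Myf5Cre library, and 8.63% were below.

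**Figure D2:**
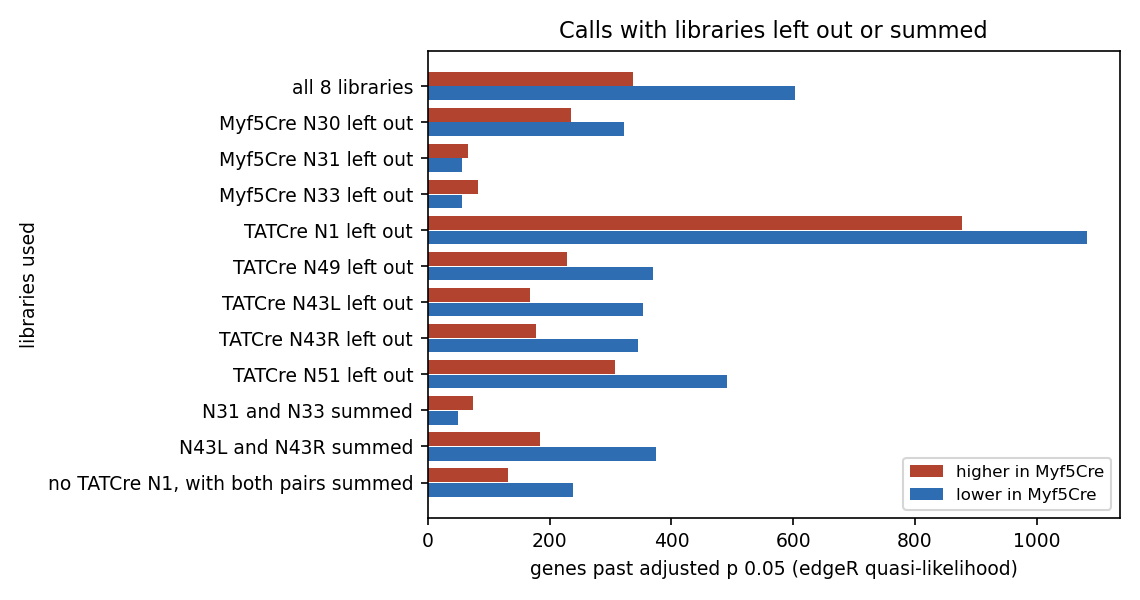
Number of genes called higher (red) and lower (blue) in Myf5Cre than in TATCre tumours, edgeR quasi-likelihood test at adjusted p 0.05, with all 8 Snf5-null libraries, with each left out, and with alike pairs summed. Leaving out N1 raised the counts to 877 and 1082, and leaving out N31 or N33 left 122 and 138 calls in all.

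Peg3 (ENSMUSG00000002265, chromosome 7, 6703892 to 6730431, minus strand), an imprinted gene that makes a zinc finger protein from the paternal allele, was at 1566, 4298 and 3602 CPM in Myf5Cre, against 144, 158, 42.2, 49.5 and 62.7 CPM in TATCre tumours. Every Myf5Cre tumour was above every TATCre tumour (log2 fold change 5.11 ± 0.49, adjusted p = 2.29e-05), and the log2 fold change was 4.83 to 5.44 over the alternatives. Usp29, whose transcription starts beside that of Peg3 on the other strand, was at 11.1, 27.1 and 31.6 CPM in Myf5Cre, against 0.233, 1.46, 0.165, 0 and 0.0976 CPM in TATCre tumours (log2 fold change 5.9 ± 1.0, adjusted p = 0.0038). Zim1, an imprinted zinc finger gene on the other side of Peg3 from Usp29, was at 73.9, 187 and 212 CPM in Myf5Cre, against 4.71, 6.78, 1.16, 0.546 and 2.39 CPM in TATCre tumours. The groups did not overlap for any of these neighbours (log2 fold change 5.66 ± 1.18, adjusted p = 0.0116 for Zim1, or 0.052 without N31 and 0.053 without N33). Together with the predicted gene Gm44863 they made a run of 4 adjacent tested genes called higher, on chromosome 7 from 6671269 to 6967219. Peg3 and Zim1 were singled out after their values were seen.

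Other imprinted genes went both ways. Of 34 imprinted genes, a list also drawn up after values were seen, 5 were called higher (Peg3, Usp29, Zim1, Rtl1 and Asb4) and 1 lower (Snrpn), with a median of -0.27 against -0.05 over all genes tested. Rtl1, a retrotransposon-derived gene needed in the placenta, was at 159, 222 and 148 CPM in Myf5Cre, against 3.2, 12.6, 3.96, 2.02 and 2.34 CPM in TATCre tumours (log2 fold change 5.19 ± 0.93, adjusted p = 0.00485). Asb4, a substrate adaptor of a ubiquitin ligase, was at 29, 303 and 249 CPM in Myf5Cre, against 0.639, 9.69, 1.05, 1.09 and 1.95 CPM in TATCre tumours (log2 fold change 6.07 ± 1.35, adjusted p = 0.0158, or 0.0748 without N31 and 0.0649 without N33). Snrpn, which encodes a spliceosomal protein, was at 1.19, 3.88 and 3.81 CPM in Myf5Cre, against 7.27, 23.1, 19.8, 16.7 and 8.1 CPM in TATCre tumours (log2 fold change -2.34 ± 0.46, adjusted p = 0.00903). For Rtl1, Asb4 and Snrpn the groups were separate in every library. The Myf5Cre tumour N30 was the lowest of its group for Asb4 and Snrpn.

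The promoter windows of 3 genes, chosen as examples, are printed here from RefSeq (GRCm38.p6). Each is 300 bases on the gene's own strand, 250 before to 50 after its annotated start, with CG dinucleotides in capitals. CG is where most methylation of mammalian DNA falls. No methylation was measured in this series. Peg3 (chr7:6730370-6730669, minus strand) held 13 CG, Hoxa11 (chr6:52245761-52246060, minus strand) 15 and Hoxd13 (chr2:74667975-74668274, plus strand) 37, against a median of 7 over 32851 windows of the table. Over genes tested with a window the median was 19 (12651 genes), and it was 20 for 263 genes called higher and 19 for 410 called lower. The window of Usp29 shares 263 bases with that of Peg3 and is not printed.
Peg3: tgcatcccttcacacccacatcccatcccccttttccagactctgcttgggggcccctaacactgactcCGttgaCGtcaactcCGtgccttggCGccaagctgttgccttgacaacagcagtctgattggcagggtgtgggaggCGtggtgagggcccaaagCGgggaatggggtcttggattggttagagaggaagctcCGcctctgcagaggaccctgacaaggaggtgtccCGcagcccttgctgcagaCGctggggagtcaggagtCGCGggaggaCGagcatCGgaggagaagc
Hoxa11: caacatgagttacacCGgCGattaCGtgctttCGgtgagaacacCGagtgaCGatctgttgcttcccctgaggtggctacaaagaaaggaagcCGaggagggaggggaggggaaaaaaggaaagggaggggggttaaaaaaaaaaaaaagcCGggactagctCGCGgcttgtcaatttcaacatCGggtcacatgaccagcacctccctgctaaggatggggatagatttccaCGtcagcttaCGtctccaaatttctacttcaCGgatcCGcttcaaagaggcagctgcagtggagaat
Hoxd13: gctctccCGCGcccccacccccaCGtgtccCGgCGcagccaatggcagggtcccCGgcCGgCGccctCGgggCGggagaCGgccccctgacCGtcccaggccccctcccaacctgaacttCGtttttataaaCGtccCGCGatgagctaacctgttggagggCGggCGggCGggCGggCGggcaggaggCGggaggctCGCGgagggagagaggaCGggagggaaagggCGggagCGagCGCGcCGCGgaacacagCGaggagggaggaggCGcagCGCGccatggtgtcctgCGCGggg

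The Hox A cluster was nearly silent in Myf5Cre tumours and expressed in every TATCre tumour. Its 11 genes summed to 0.791, 0.348 and 0.313 CPM in Myf5Cre tumours, against 63.4, 102, 68.1, 84.3 and 49.4 CPM in TATCre tumours, N1 included. Of the 11 genes 9 were called lower and 0 higher, 10 were lower in every Myf5Cre than in every TATCre library (8.63% of all genes tested were, and 8.38% were above), and the list median was -5.76 (-5.6 with silent groups set to a floor of 3 counts). Hoxa10, chromosome 6, 52231197 to 52240854, minus strand, was at 0, 0 and 0.0625 CPM in Myf5Cre, against 15.4, 38.1, 29.5, 39.99 and 22.9 CPM in TATCre tumours, which is 1 count in all Myf5Cre libraries together. Hoxa11, a limb and reproductive tract gene whose promoter is printed above, had 0 counts in the Myf5Cre tumours, against 9.88, 12, 4.24, 16.1 and 0.439 CPM in TATCre tumours, at least 147-fold lower on a floor of 3 counts over the group. Hoxa9 was at 0.113, 0 and 0 CPM in Myf5Cre, against 7.5, 27.9, 18.1, 14.4 and 12.1 CPM in TATCre tumours. In none of these genes did the groups overlap.

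The 9 calls of the Hox A cluster had adjusted p from 0.00862 (Hoxa10) to 0.035 (Hoxa11). Without N1 all 9 stayed called and there were 10 in the cluster, with adjusted p between 0.00446 and 0.0289 for the 9. Without N31 0 of the 9 were called (0.0692 to 0.162), and without N33 0 (0.0564 to 0.142), although the fold changes kept their direction. Of the leave-one-out fits, Hoxa2, Hoxa3, Hoxa9 and Hoxa10 lost the call in those alone, and Hoxa7 also without N30 (0.0704). Hoxa5 lost it also without N30 (0.0809) and N49 (0.0549). Hoxa4 and Hoxa11 lost it also without N30 (0.0996 and 0.0912) and without N49, N43L or N43R (0.054 to 0.0631). Hoxa13, the last gene of the cluster, was high in 1 TATCre tumour only, N1, at 0.17, 0.149 and 0 CPM in Myf5Cre, against 20, 0.57, 0.11, 0.546 and 0 CPM in TATCre tumours (log2 fold change -5.2 ± 1.89, adjusted p = 0.117).

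The other Hox clusters gave few calls, and the difference between clusters was not tested. All 8 Hox B genes tested were negative (median -3.32), 0 were called and 1 was below every TATCre library, and the gene with the lowest p, Hoxb9, was at 0.0565, 0 and 0.125 CPM in Myf5Cre, against 1.4, 12.7, 0.22, 0.273 and 0.439 CPM in TATCre tumours (log2 fold change -5.53 ± 2.13, adjusted p = 0.141). Of 9 Hox C genes 2 were called lower, or 4 without N1 (3.19% of all genes tested were, or 5.74% without N1). All 9 were negative (median -4.21), and 6 were below every TATCre library (8.63% of all genes were). They summed to 7.96 to 32.1 CPM in Myf5Cre tumours, against 49.6 to 160 CPM in TATCre tumours. Hoxc11 was at 0, 0.0498 and 0 CPM in Myf5Cre, against 11.4, 6.9, 4.74, 9.29 and 4.34 CPM in TATCre tumours (log2 fold change -8.18 ± 2.11, adjusted p = 0.0316, or 0.0551 to 0.154 without any 1 of N30, N31, N33 and N43R). Hoxc13 was at 0, 0.0498 and 0 CPM in Myf5Cre, against 0.0581, 14.1, 7.49, 5.74 and 4.25 CPM in TATCre tumours (log2 fold change -7.97 ± 2.18, adjusted p = 0.0464, or 0.0599 to 0.191 without any 1 of N30, N31, N33, N49, N43L, N43R and N51). TATCre N1 was about as low as the Myf5Cre tumours. Hoxc10 was lower in every Myf5Cre library without passing the test, at 0, 0.896 and 0.312 CPM in Myf5Cre, against 12.8, 34.8, 31.4, 36.9 and 33.3 CPM in TATCre tumours (log2 fold change -6.16 ± 1.79, adjusted p = 0.0518).

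Within the Hox D cluster calls went both ways, Hoxd13 higher and Hoxd8 and Hoxd9 lower. Of 9 genes tested 7 were negative, and the median was -4.2. Hoxd13, which patterns the digits and the genital region, was at 21.2, 39.9 and 28 CPM in Myf5Cre, against 0.872, 1.2, 0, 0.0546 and 0.488 CPM in TATCre tumours (log2 fold change 5.82 ± 1.26, adjusted p = 0.0139, or 0.0659 without N31 and 0.0522 without N33). Evx2, the homeobox gene just beyond Hoxd13, was at 0.395, 1.29 and 0.563 CPM in Myf5Cre, against 0.0581, 0, 0, 0 and 0 CPM in TATCre tumours (log2 fold change 5.37 ± 1.08, adjusted p = 0.00987, or 0.0709 without N31). It had 42 counts in Myf5Cre and 1 in TATCre libraries, a ratio of 70.2 (95% counting interval 11.9 to 2.84e+03). Evx2 was named after its value was seen. Hoxd12, the next gene inwards, had 0 counts in the Myf5Cre and 3 in the TATCre libraries. Hoxd9 was at 0.847, 0.0498 and 0 CPM in Myf5Cre, against 0.174, 9.69, 16.2, 14.5 and 19 CPM in TATCre tumours (log2 fold change -5.28 ± 1.41, adjusted p = 0.0372, or 0.0551 to 0.192 without any 1 of N31, N33, N49, N43L, N43R and N51). Without N30 its log2 fold change was -8.47, adjusted p = 0.0226. Hoxd8 was at 5.65, 1.09 and 0.813 CPM in Myf5Cre, against 3.25, 40.6, 69.2, 63.8 and 55.5 CPM in TATCre tumours (log2 fold change -4.2 ± 1.16, adjusted p = 0.044, or 0.0609 to 0.22 without any 1 of N31, N33, N49, N43L, N43R and N51). For both, N1 lay within the Myf5Cre range, and without N1 3 of the 9 Hox D genes were lower and 1 higher.

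**Figure D3:**
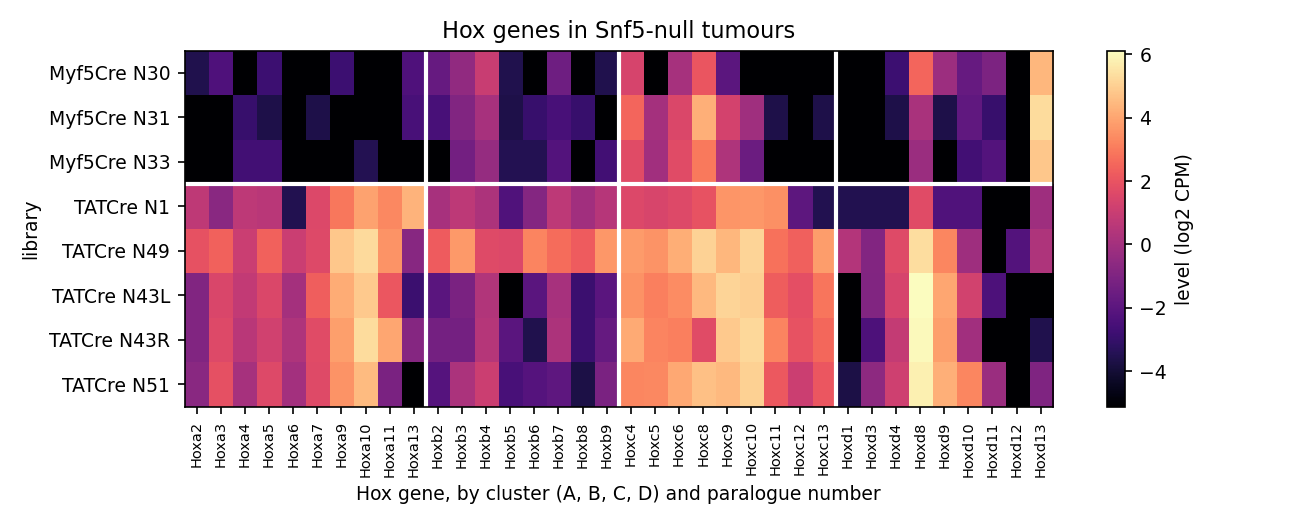
Level of tested Hox genes (log2 CPM, colour) in the 8 Snf5-null libraries (rows, Myf5Cre above the white line) by cluster and paralogue number (columns, clusters A, B, C and D split by white lines). The Hox A block is dark in the 3 Myf5Cre rows, and Hoxd13 at the far right is bright in those rows only.

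Most other genes that pattern the limb and head had negative log2 fold changes, and few were called. In the limb list 1 of 20 genes was called higher and 2 lower (1.78% and 3.19% of all genes tested were), or 1 and 4 without N1. Of the 20, 14 were negative, where 10125 of all 18929 genes tested were. In that list 9 were below and 2 above every TATCre library (8.63% and 8.38% of all genes were), and the median was -2.54. The list summed to 171 to 250 CPM in Myf5Cre tumours, against 477 to 1810 CPM in TATCre tumours. Lmx1b, the homeobox gene of the dorsal limb, was at 35.1, 45.1 and 35.9 CPM in Myf5Cre, against 2.91, 6.39, 4.29, 1.15 and 5.27 CPM in TATCre tumours (log2 fold change 3.27 ± 0.58, adjusted p = 0.00474) and was called in all 15 alternatives. Tbx3, a T-box factor of the posterior limb, was at 1.02, 0.747 and 0.75 CPM in Myf5Cre, against 76.8, 29.4, 12.1, 10.4 and 20.2 CPM in TATCre tumours (log2 fold change -5.14 ± 0.98, adjusted p = 0.00776, or 0.0641 without N31 and 0.0576 without N33). Both were separate between the groups in every library. Tbx15, a T-box factor of limb and trunk mesenchyme, was at 20.6, 3.68 and 1.94 CPM in Myf5Cre, against 25.6, 241, 221, 266 and 204 CPM in TATCre tumours, with N1 close to N30 (log2 fold change -4.45 ± 1.19, adjusted p = 0.0377, or 0.0606 to 0.19 without any 1 of N31, N33, N49, N43L and N43R). In the head and branchial list 1 of 33 genes tested was higher and 2 were lower, or 2 and 3 without N1. Of the 33, 28 were negative, 3 were below and 2 above every TATCre library, and the median was -1.84. The counts below and above lay near the shares over all genes tested. Pax1, a factor of the sclerotome and pharyngeal pouches, was at 0.96, 5.28 and 3.56 CPM in Myf5Cre, against 0.116, 0.127, 0.0551, 0 and 0.0976 CPM in TATCre tumours (log2 fold change 5.26 ± 1.38, adjusted p = 0.0341, or 0.0612 to 0.147 without any 1 of N31, N33, N49, N43L, N43R and N51). Foxc1, a forkhead factor of mesoderm and neural crest, was at 0.96, 0.597 and 0.312 CPM in Myf5Cre, against 1.4, 69.8, 19.8, 42 and 23.2 CPM in TATCre tumours (log2 fold change -5.62 ± 1.13, adjusted p = 0.00987, or 0.0715 without N31 and 0.0715 without N33). Gsc was at 0.17, 0.0498 and 0 CPM in Myf5Cre, against 0.0581, 48.7, 36.3, 18.3 and 15.1 CPM in TATCre tumours (log2 fold change -8.19 ± 1.84, adjusted p = 0.0163, or 0.111 without N31 and 0.0988 without N33), and for this gene N1 fell inside the Myf5Cre range. Among 9 Hox cofactors Meis2 alone was called, lower at -3.79 ± 1.06 (adjusted p = 0.0464), with N1 the highest tumour. The call was lost at an adjusted p of 0.052 to 0.22 without any 1 of N30, N31, N33, N1, N49, N43R and N51.

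Several tendon and fibroblast genes were lower in Myf5Cre tumours. Of 13 tendon and joint genes 5 were called lower and 0 higher (3.19% and 1.78% of all genes tested were), with a list median of -2.72. The list summed to 359 to 600 CPM in Myf5Cre tumours, against 1270 to 3510 CPM in TATCre tumours. Comp, a cartilage and tendon matrix glycoprotein, was at 4.07, 0.647 and 1.31 CPM in Myf5Cre, against 18.5, 376, 1042, 1483 and 537 CPM in TATCre tumours (log2 fold change -8.43 ± 1.47, adjusted p = 0.00417), and its call held in all 15 alternatives. Fmod, the collagen-binding proteoglycan fibromodulin, was at 2.88, 0.946 and 3.31 CPM in Myf5Cre, against 6.97, 392, 1043, 930.4 and 696 CPM in TATCre tumours (log2 fold change -8.01 ± 1.53, adjusted p = 0.00776, or 0.0645 without N31 and 0.0521 without N33). In both N1 was the TATCre tumour nearest the Myf5Cre range. Mkx, the tendon homeobox factor mohawk, was at 3.95, 11.9 and 12.2 CPM in Myf5Cre, against 57.2, 122, 188, 229 and 148 CPM in TATCre tumours (log2 fold change -3.99 ± 0.86, adjusted p = 0.0134, or 0.0543 to 0.0761 without any 1 of N30, N31 and N33). Tnmd, a late tendon marker, was at 0.226, 0.0995 and 0.563 CPM in Myf5Cre, against 1.57, 2.34, 78.3, 64.2 and 32.9 CPM in TATCre tumours (log2 fold change -6.91 ± 1.62, adjusted p = 0.0197, or 0.0693 to 0.128 without any 1 of N30, N31 and N33). Erg, an ETS factor of joint cartilage and endothelium, was lower by less (log2 fold change -1.78 ± 0.43, adjusted p = 0.0228, or 0.0627 to 0.123 without any 1 of N30, N31, N33 and N43R). Without N1 the same 5 were lower, with 2 others of the list higher.

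Pdgfra, the receptor for platelet-derived growth factor on most fibroblasts, was lower under every setting tried. It was at 18.5, 9.9 and 8.44 CPM in Myf5Cre, against 110.5, 481, 451, 673 and 719.8 CPM in TATCre tumours (log2 fold change -5.31 ± 0.58, adjusted p = 0.000105, 39.6-fold lower), called in all 15 alternatives, with fold changes of -5.73 to -5.09. The highest Myf5Cre tumour was well below the lowest TATCre tumour, N1. Pdgfrb, its relative on pericytes and fibroblasts, was at 123, 62.2 and 47.1 CPM in Myf5Cre, against 83.7, 195, 328, 492 and 430.3 CPM in TATCre tumours, so that the groups overlapped at N1 (log2 fold change -1.98 ± 0.54, adjusted p = 0.0399, or 0.0738 to 0.207 without any 1 of N31, N33, N43L, N43R and N51). Tagln, a smooth muscle actin-binding protein, was at -3.4 ± 0.75 (adjusted p = 0.015, or 0.108 without N31 and 0.0972 without N33). These were 3 calls among 30 fibroblast and matrix genes, all lower. Igfbp6, a binding protein of insulin-like growth factor 2 made by fibroblasts, was named after its value was seen. It was at 5.25, 2.59 and 1.81 CPM in Myf5Cre, against 57.2, 1120, 816, 838 and 412 CPM in TATCre tumours (log2 fold change -7.65 ± 1.07, adjusted p = 0.000867), and its call too held in all 15.

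Collagens and matrix enzymes moved in both directions. Of 24 collagen genes tested 3 were lower and 1 higher (3.19% and 1.78% of all genes tested were). Col16a1 was at -3.52 ± 0.77 (adjusted p = 0.0145, or 0.108 without N31 and 0.0988 without N33). Col8a2 was at -5.33 ± 1.26 (adjusted p = 0.0205, or 0.129 without N31 and 0.123 without N33), and Col12a1, a fibril-associated collagen, at -4.77 ± 1.34 (adjusted p = 0.0467, or 0.0599 to 0.221 without any 1 of N30, N31, N33, N49, N43L, N43R and N51). Col9a1, a cartilage collagen, was higher at 1.36, 0.647 and 3.63 CPM in Myf5Cre, against 0, 0, 0.0551, 0.0546 and 0.146 CPM in TATCre tumours (log2 fold change 4.95 ± 0.94, adjusted p = 0.00776, or 0.0644 without N33). Of 22 matrix proteases and inhibitors tested 2 were higher and 3 lower. Mmp8, the neutrophil collagenase, was at 2.09, 13.1 and 13.6 CPM in Myf5Cre, against 0.291, 0.253, 0.22, 0.164 and 0.195 CPM in TATCre tumours (log2 fold change 5.38 ± 0.89, adjusted p = 0.00297) and called in all 15 alternatives. Plaur, the urokinase receptor, overlapped at N30, at 47.8, 227 and 198 CPM in Myf5Cre, against 58.6, 48.4, 38.9, 32.9 and 48 CPM in TATCre tumours (log2 fold change 1.8 ± 0.33, adjusted p = 0.00636, or 0.0715 without N31 and 0.0528 without N33). Timp3, an inhibitor bound to the matrix, was lower at -2.6 ± 0.55 (adjusted p = 0.0124, or 0.0978 without N31 and 0.0927 without N33). Mmp13, a collagenase, was lower at -3.25 ± 0.85 (adjusted p = 0.0336, or 0.0516 to 0.183 without any 1 of N30, N31, N33, N49, N43L and N43R). Mmp12, the macrophage elastase, was lower at -3.98 ± 1.1 (adjusted p = 0.0445, or 0.0639 to 0.208 without any 1 of N30, N31, N33, N49, N43L and N43R).

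**Figure D4:**
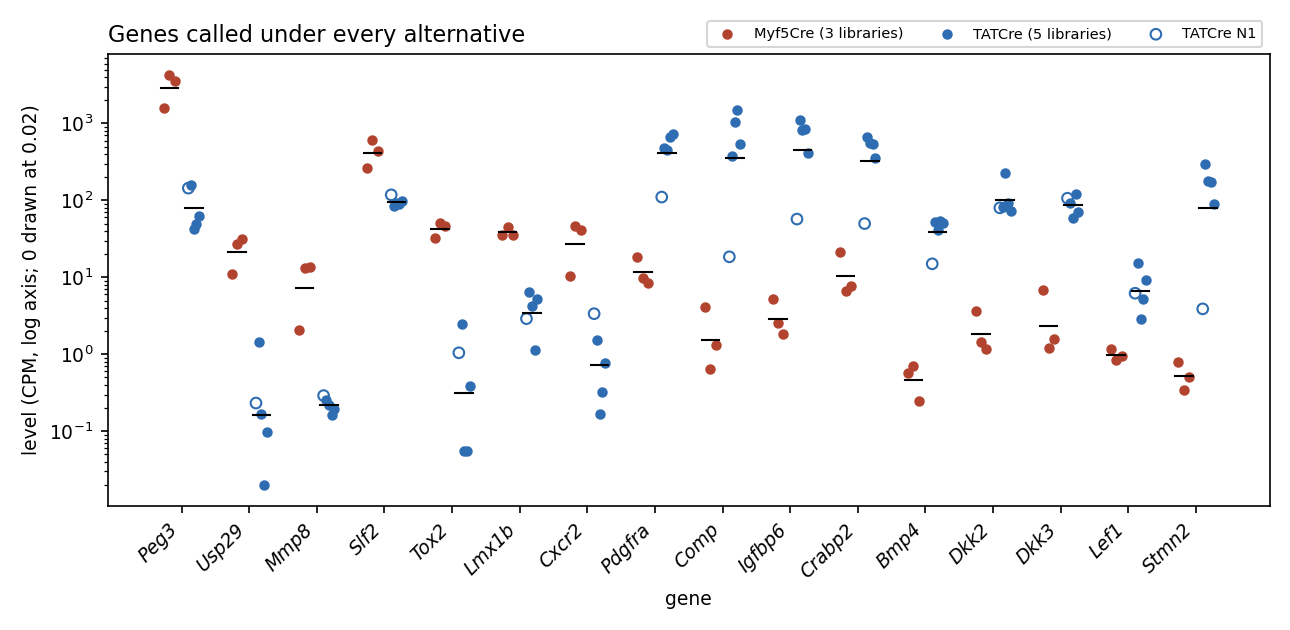
Level (CPM, log axis) of 16 of the genes called in all 15 alternatives, in each of the 3 Myf5Cre (red) and 5 TATCre (blue, N1 as an open circle) tumours; bars are geometric means, with 0 drawn at 0.02. No gene shown overlaps between the groups. N1 is the TATCre tumour nearest the Myf5Cre tumours for Pdgfra, Comp, Igfbp6, Crabp2, Bmp4 and Stmn2, which are lower in Myf5Cre. It is also the nearest for Mmp8, Slf2 and Cxcr2, which are higher.

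Signalling genes of the Bmp family changed most at a ligand and an opposing family member. Bmp4, a growth factor of limb and mesoderm, was at 0.565, 0.697 and 0.25 CPM in Myf5Cre, against 15, 51.9, 40.9, 53.8 and 50.6 CPM in TATCre tumours (log2 fold change -6.36 ± 0.78, adjusted p = 0.000347), lower in all 3 Myf5Cre tumours and called in all 15 alternatives. Bmp3, a family member that antagonises other Bmps in bone, was at 762, 1022 and 725 CPM in Myf5Cre, against 1.8, 30.1, 2.37, 0.655 and 41.5 CPM in TATCre tumours (log2 fold change 5.77 ± 1.17, adjusted p = 0.00987). Its Myf5Cre levels were of a like size in all 3 tumours and the highest TATCre level was that of N51, and the call was lost only where N1 was left out and both alike pairs were summed. Gdf6, a joint-forming ligand, was at 1.86, 0.348 and 0.0625 CPM in Myf5Cre, against 7.38, 90.4, 86.7, 100 and 38.5 CPM in TATCre tumours (log2 fold change -6.4 ± 1.29, adjusted p = 0.00987, or 0.0758 without N31 and 0.0633 without N33). Tgfb3 was lower at -2.56 ± 0.67 (adjusted p = 0.0346, or 0.0588 to 0.192 without any 1 of N31, N33, N49, N43L and N43R). In all, 1 of 26 genes of the list was higher and 4 were lower.

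In the Wnt list of 19 genes 3 were lower and 1 higher. Dkk2, a secreted modulator of Wnt signals, was at 3.62, 1.44 and 1.19 CPM in Myf5Cre, against 80.04, 83.2, 229.5, 91.8 and 73.3 CPM in TATCre tumours (log2 fold change -5.74 ± 0.83, adjusted p = 0.00105). Dkk3, of the same family, was at 6.95, 1.19 and 1.56 CPM in Myf5Cre, against 107, 92.9, 59, 119.6 and 70.7 CPM in TATCre tumours (log2 fold change -4.79 ± 0.68, adjusted p = 0.000949). Lef1, the transcription factor and target at the end of the pathway, was at 1.19, 0.846 and 0.938 CPM in Myf5Cre, against 6.22, 15.4, 2.92, 5.24 and 9.12 CPM in TATCre tumours (log2 fold change -2.97 ± 0.46, adjusted p = 0.00174). These 3 did not overlap between groups and were called in all 15 alternatives. Notum, an enzyme that inactivates Wnt ligands, was at 3.39, 16.5 and 14.4 CPM in Myf5Cre, against 1.05, 1.27, 0.606, 0.492 and 1.46 CPM in TATCre tumours (log2 fold change 3.54 ± 0.83, adjusted p = 0.0196, or 0.105 without N31 and 0.0886 without N33). Without N1 the counts were 2 higher and 7 lower.

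Retinoic acid, Fgf and Notch genes gave a few calls each. Crabp2, which carries retinoic acid to its receptors, was at 21.2, 6.72 and 7.69 CPM in Myf5Cre, against 49.99, 672, 563, 544 and 356 CPM in TATCre tumours (log2 fold change -5.2 ± 0.74, adjusted p = 0.000949) and was called in all 15 alternatives. Cyp26a1, which breaks retinoic acid down, was at 0.339, 0.249 and 0.312 CPM in Myf5Cre, against 6.39, 71.4, 41.1, 42.2 and 18.9 CPM in TATCre tumours (log2 fold change -6.88 ± 1.42, adjusted p = 0.0113, or 0.0813 without N31 and 0.0757 without N33). Both were below every TATCre tumour, in a list of 17 with 2 lower and 0 higher. Fgf5 was at 0.791, 16.8 and 19.1 CPM in Myf5Cre, against 0.0581, 0.38, 0, 0 and 0.0488 CPM in TATCre tumours (log2 fold change 6.93 ± 1.38, adjusted p = 0.00927), with N30 far under the other Myf5Cre tumours. Fgf18, a growth factor of cartilage and bone, was at 0.17, 0.0995 and 0 CPM in Myf5Cre, against 0.349, 4.3, 1.93, 5.41 and 2.49 CPM in TATCre tumours (log2 fold change -4.88 ± 0.96, adjusted p = 0.00875, or 0.0659 without N31 and 0.059 without N33). Fgf1 overlapped at N1, at -4.93 ± 1.28 (adjusted p = 0.0332, or 0.0522 to 0.182 without any 1 of N30, N31, N33, N49 and N43L). The ETS factor Etv4 was at -3.46 ± 0.91 (adjusted p = 0.035, or 0.0526 to 0.162 without any 1 of N30, N31, N33, N49, N43L and N43R). The binding protein gene Igfbp3 was at -1.44 ± 0.40 (adjusted p = 0.0456, or 0.0789 to 0.162 without any 1 of N30, N31, N33, N49, N43R and N51). The receptor gene Igf1r was higher at 2.04 ± 0.58 (adjusted p = 0.0466, or 0.0652 to 0.151 without any 1 of N30, N31, N33, N49, N43L, N43R and N51). In all, 1 of 29 genes in that list was higher and 4 were lower, Fgf5 not being on it. The receptor Notch3 was higher, at 153, 213 and 233 CPM in Myf5Cre, against 8.02, 53.3, 38.1, 48.3 and 52.6 CPM in TATCre tumours (log2 fold change 2.32 ± 0.55, adjusted p = 0.0217, or 0.0978 without N31 and 0.0988 without N33). The Notch target Hes1 was lower, at 12.8, 14.8 and 12 CPM in Myf5Cre, against 20.6, 55.1, 55.1, 50.8 and 39.4 CPM in TATCre tumours (log2 fold change -1.74 ± 0.42, adjusted p = 0.023, or 0.0699 to 0.123 without any 1 of N30, N31 and N33). These were the calls among 20 Hedgehog and Notch genes.

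The other genes with the largest differences had no common list. Among the 12 largest rises were Slc26a7, an anion transporter, at 185, 66.4 and 36.7 CPM in Myf5Cre, against 0.349, 2.47, 0.33, 0 and 0.244 CPM in TATCre tumours (log2 fold change 7.16 ± 1.44, adjusted p = 0.00987). Amtn and Odam, both proteins of the tooth enamel surface, were at 6.1, 5.62 and 3 CPM and 5.14, 4.23 and 5.06 CPM in Myf5Cre tumours, with at most 0.19 CPM in any TATCre tumour for each. The log2 fold change was 6.26 ± 0.97 for Amtn (adjusted p = 0.00417). For Odam it was 6.5 ± 1.0 (adjusted p = 0.0112, or 0.052 without N31 and 0.0521 without N33). Tmem179, Slc1a6, a glutamate transporter, and Pdyn, which encodes opioid peptides, were low but present, between 1.81 and 8.81 CPM in Myf5Cre tumours and at most 0.19 CPM in TATCre tumours. Their log2 fold changes were 5.89 ± 0.86, 5.85 ± 1.02 and 6.05 ± 1.26, and Pdyn lost its call at 0.0685 without N31. Among the 12 largest falls Stmn2, a microtubule regulator of neurons, was at 0.791, 0.348 and 0.5 CPM in Myf5Cre, against 3.89, 297, 177, 175 and 90.4 CPM in TATCre tumours (log2 fold change -8.07 ± 1.38, adjusted p = 0.0038). Snap25, a synaptic vesicle fusion protein, went the other way, at 206, 233 and 214 CPM in Myf5Cre, against 20.9, 9.94, 1.43, 2.73 and 2.59 CPM in TATCre tumours (log2 fold change 4.86 ± 1.12, adjusted p = 0.0184, or 0.0761 without N31 and 0.07 without N33). The neural list of 21 thus had 1 call each way. Egfl6, Ifi44l, Vxn, Fam180a, Ism1 and Crispld1 were at -9.59, -9.03, -9.88, -8.26, -8.2 and -8.03 with adjusted p from 0.00856 (Egfl6) to 0.0409 (Crispld1). All 6 lost the call without N31 and without N33 (0.0671 to 0.199 and 0.0539 to 0.181 over the 6). For Vxn the Myf5Cre tumours had 0 counts, at least 121-fold lower. For Ifi44l they had 1 count, a ratio of 0.00137 (95% counting interval 3.47e-05 to 0.00764).

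Other genes called in all 15 alternatives had no list of their own. Tox2, a high mobility group transcription factor named, like Scn9a, after its value was seen, was at 32.6, 50.5 and 46.6 CPM in Myf5Cre, against 1.05, 2.47, 0.0551, 0.0546 and 0.39 CPM in TATCre tumours (log2 fold change 5.75 ± 0.96, adjusted p = 0.00321). Scn9a, a sodium channel gene, was at 16.9, 2.29 and 3.12 CPM in Myf5Cre, against 0.465, 0.127, 0.11, 0.0546 and 0.0488 CPM in TATCre tumours (log2 fold change 5.49 ± 1.02, adjusted p = 0.00871), highest in N30. Slf2, which encodes a partner of the SMC5/6 complex in DNA repair, was at 264, 605 and 439.7 CPM in Myf5Cre, against 118, 84, 92.1, 89.3 and 97.8 CPM in TATCre tumours. The groups did not overlap (log2 fold change 2.18 ± 0.20, adjusted p = 2.29e-05, 4.53-fold higher).

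Neutrophil and mast cell genes lay on both sides of the TATCre libraries, with calls only for higher levels in edgeR. Of 13 tested 4 were called higher and 0 lower (1.78% and 3.19% of all genes tested were). In that list 5 were above and 5 below every TATCre library (8.38% and 8.63% of all genes were). The median log2 fold change was -0.50, or 0.01 without N1, where 5 were higher and 0 lower. DESeq2 called 5 higher and 5 lower. The list summed to 107, 427 and 611 CPM in Myf5Cre tumours, against 251, 44.1, 45.3, 47.1 and 32 CPM in TATCre tumours, with N30 the lowest Myf5Cre and N1 the highest TATCre tumour. Cxcr2, the receptor that draws neutrophils to chemokines, was at 10.3, 46.1 and 41.1 CPM in Myf5Cre, against 3.37, 1.52, 0.165, 0.328 and 0.781 CPM in TATCre tumours (log2 fold change 4.72 ± 0.91, adjusted p = 0.00776), called in all 15 alternatives. S100a8 and S100a9, the calprotectin subunits, were at 4.94 ± 1.19 and 5.0 ± 1.05 (adjusted p = 0.0224 and 0.0119). Without 1 library these calls were lost for S100a8 at 0.0544 to 0.124 without any 1 of N31, N33 and N43L, and for S100a9 at 0.0514 without N31 and 0.0734 without N33. Retnlg was at 5.24 ± 1.17 (adjusted p = 0.0159, or 0.0758 without N31 and 0.0785 without N33). Cxcl5, a ligand of Cxcr2, was at 20.8, 178 and 155 CPM in Myf5Cre, against 4.36, 3.42, 0, 0.164 and 0.927 CPM in TATCre tumours (log2 fold change 6.06 ± 1.03, adjusted p = 0.0038), called in all 15 alternatives. Ppbp, a platelet chemokine next to Cxcl5 on chromosome 5 and named after its value was seen, was at 16.7, 47.5 and 25 CPM in Myf5Cre, against 0.756, 1.9, 0.991, 0.71 and 1.51 CPM in TATCre tumours (log2 fold change 4.66 ± 0.83, adjusted p = 0.00469). With Rassf6 these made a run of 3 adjacent genes called higher. Ly6g, a defining neutrophil surface marker, was too low to be tested. Below every TATCre library but not called were Camp, a neutrophil granule peptide, and the mast cell protease genes Cpa3, Mcpt4, Tpsb2 and Cma1. Cpa3 was at 0.113, 0 and 0 CPM in Myf5Cre, against 54.3, 0.506, 0.33, 1.91 and 1.12 CPM in TATCre tumours (log2 fold change -8.03 ± 3.33, adjusted p = 0.174), with N1 far the highest. The part of these cells in the levels of other genes was not tested.

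Other immune and stromal lists gave 0 or 1 calls, chemokines aside. Of 21 macrophage and 12 B cell genes 0 were called. Ptprc, the pan-leucocyte antigen, was at 450, 249 and 264 CPM in Myf5Cre, against 378, 116, 194, 309 and 219 CPM in TATCre tumours (log2 fold change 0.40 ± 0.62, adjusted p = 0.795). Of 23 T and NK cell genes 1 was called, Ncr1, at 1.19, 0.946 and 0.813 CPM in Myf5Cre and at most 0.218 CPM in TATCre tumours (log2 fold change 3.22 ± 0.88, adjusted p = 0.0413, or 0.0707 to 0.142 without any 1 of N30, N31, N33, N49, N43L and N51). Of 27 interferon response genes 1 was called higher, Rsad2 (log2 fold change 2.18 ± 0.54, adjusted p = 0.0255, or 0.0554 to 0.227 without any 1 of N31, N33, N49 and N43L). In that list 13 were above every TATCre library (8.38% of all genes were), and the median was 0.89. Ccl2, a monocyte chemokine, was lower (log2 fold change -2.98 ± 0.75, adjusted p = 0.0279, or 0.058 to 0.167 without any 1 of N31, N33, N43L and N43R), so that 1 of 25 chemokines and receptors tested was higher and 1 lower. Among 17 endothelial genes Sox18 alone was called, lower (log2 fold change -3.17 ± 0.81, adjusted p = 0.0305, or 0.0639 to 0.17 without any 1 of N30, N31, N33, N43L and N43R). Among 11 Schwann cell genes it was Pmp22 alone, lower (log2 fold change -2.07 ± 0.44, adjusted p = 0.0122, or 0.101 without N31 and 0.0981 without N33). Sp7, the osteoblast factor osterix, was the only call of 15 cartilage and bone genes, lower (log2 fold change -5.2 ± 1.2, adjusted p = 0.0183, or 0.0599 to 0.112 without any 1 of N30, N31 and N33). Antigen presentation, epithelial, keratinocyte, gland, adipocyte and red cell lists had 0 calls. In the list of visceral and brain genes Cps1, a urea cycle enzyme, was higher (log2 fold change 5.46 ± 1.3, adjusted p = 0.0214, or 0.0521 to 0.0758 without any 1 of N30, N31 and N33; 9.68 without N49, adjusted p = 0.000673), while Alb and Apoa1 were too low to be tested.

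Muscle genes gave no calls with all 8 libraries. Of 25 myogenic regulators and of 26 mature muscle genes 0 were called. Without N1 2 regulators were higher and 0 lower, Met and Mymx, and the median of that list was 0.67, against -0.40 with N1. Met, the receptor of hepatocyte growth factor, then had a log2 fold change of 5.45, adjusted p = 0.00781, and Mymx, a gene of myoblast fusion, of 5.84, adjusted p = 0.0223, both named after their values were seen. The mature list summed to 19900, 1520 and 1110 CPM in Myf5Cre tumours, against 4340, 11800, 33100, 13600 and 4240 CPM in TATCre tumours, which overlap widely. Pax7, the satellite cell factor, had the lowest p of the regulators and was at 0.565, 0.0498 and 0.0625 CPM in Myf5Cre, against 9.01, 6.96, 0.33, 0.819 and 0.878 CPM in TATCre tumours (log2 fold change -3.95 ± 1.19, adjusted p = 0.0596). The list of regulators, which holds Myf5, summed to 2680, 2030 and 1860 CPM in Myf5Cre tumours, against 3930 in N1 and 724 to 1370 CPM in the other TATCre tumours.

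Proliferation, chromatin and stress lists gave 1 call at most each. Of 27 cell cycle genes 0 were called, 15 were above every TATCre library (8.38% of all genes were) and the median was 1.04, with 7 called higher and 1 lower without N1. Mki67, the proliferation antigen, was at 578, 519 and 488 CPM in Myf5Cre, against 233, 177, 90.3, 127 and 234 CPM in TATCre tumours (log2 fold change 1.62 ± 0.51, adjusted p = 0.0717, or 1.79, adjusted p = 0.0431, without N1). Of 30 SWI/SNF subunits tested Smarca4, the ATPase of the complex, was higher (log2 fold change 0.93 ± 0.24, adjusted p = 0.0335, or 0.0589 to 0.148 without any 1 of N30, N31, N33, N49, N43L and N43R). Of 30 Polycomb genes Aebp2, a subunit of the second Polycomb complex, was higher (log2 fold change 0.88 ± 0.23, adjusted p = 0.0346, or 0.054 to 0.187 without any 1 of N30, N31, N33, N43L and N43R). Zmat3, a p53 target, was the only call of 20 genes of the Cdkn2 locus and p53 targets (log2 fold change 0.98 ± 0.23, adjusted p = 0.0211, or 0.0521 to 0.14 without any 1 of N30, N31 and N33). Car12, a carbonic anhydrase, was the only hypoxia and glycolysis call of 18 (log2 fold change 3.68 ± 1.01, adjusted p = 0.0423, or 0.0775 to 0.293 without any 1 of N31, N33, N49, N43L, N43R and N51). Hsph1, a heat shock protein, was the only stress call of 18 (log2 fold change 1.45 ± 0.32, adjusted p = 0.0148, or 0.0996 without N30).

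Whether these differences belong to the Cre label whatever the genotype can be asked in the combined tumours, which share no library with the Snf5-null ones. The tags N49 (TATCre in both) and N1 (TATCre in Snf5-null, Myf5Cre in combined tumours) occur in both genotypes. The labels do not say whether a shared tag means a shared animal. In combined tumours 108 genes were called higher with Myf5Cre (0.571%) and 236 lower (1.25%). Of the 940 genes called in Snf5-null tumours 18 were called the same way and 12 the opposite way in combined tumours, and 57% had the same sign (54.2% of all genes did). The difference between genotypes (the interaction) was itself called for 209 genes upwards (1.1%) and 249 downwards (1.32%), among them 267 of the 940. The interaction contains the Snf5-null difference and reuses its libraries, so a raised share among the 940 was in part built in. This overlap therefore cannot tell whether the differences are particular to Snf5-null tumours. Without N31 the interaction was called for 31 and 29, without N33 for 54 and 36, and without N1 for 495 and 558.

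Peg3, Usp29 and Asb4 were called higher with Myf5Cre in both genotypes, Asb4 in combined tumours through 2 of 4 Myf5Cre libraries. In combined tumours Peg3 was at 417, 410.2, 192 and 242 CPM with Myf5Cre, against 39.8, 95.2, 63.9 and 35.1 CPM with TATCre, a difference of 2.43 ± 0.46, adjusted p = 0.0139, smaller than in Snf5-null tumours (interaction 2.68 ± 0.63, adjusted p = 0.0319). Usp29 differed by 4.69 ± 1.05, adjusted p = 0.0299 and Asb4 by 5.75 ± 1.46, adjusted p = 0.0491 there, with interactions of 1.21 ± 1.36, adjusted p = 0.725 and 0.32 ± 1.76, adjusted p = 0.964. Combined Usp29 was at 8.93, 7.58, 3.8 and 4.54 CPM with Myf5Cre, against 0.293, 0.493, 0 and 0.15 CPM with TATCre, with no overlap. Combined Asb4 was at 154, 161, 2.33 and 1.09 CPM with Myf5Cre, against 0.513, 0.987, 1.4 and 3 CPM with TATCre, where the groups overlapped. Zim1 was at 3.58 ± 1.19, adjusted p = 0.115 in combined tumours and did not pass. The 5 genes with the lowest interaction p were Slf2, F2rl1, Bicd1, Pdgfra and Dkk2. Pdgfra, low in Snf5-null Myf5Cre tumours, was at 467, 543, 415 and 441 CPM with Myf5Cre, against 332, 751, 547 and 236 CPM with TATCre in combined tumours (difference -0.000476 ± 0.429, adjusted p = 1; interaction -5.31 ± 0.68, adjusted p = 0.0012). Slf2 likewise differed by -0.30 ± 0.20, adjusted p = 0.5 in combined tumours (interaction 2.48 ± 0.29, adjusted p = 0.000981).

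F2rl1, a protease-activated receptor gene, was lower in Snf5-null Myf5Cre tumours, at 9.04, 16.6 and 16.7 CPM in Myf5Cre, against 5.75, 119, 198, 220.4 and 261 CPM in TATCre tumours (log2 fold change -3.51 ± 0.79, adjusted p = 0.0165, or 0.0667 to 0.0938 without any 1 of N30, N31 and N33). In combined tumours it was higher with Myf5Cre by 6.2 ± 0.83, adjusted p = 0.00184. The interaction was -9.7 ± 1.18, adjusted p = 0.00102. Bicd1, a dynein adaptor, was at -1.77 ± 0.42 in Snf5-null tumours (adjusted p = 0.0204, or 0.0635 to 0.101 without any 1 of N30, N31 and N33). In combined ones it was at 2.89 ± 0.40, adjusted p = 0.00234. Dkk2 was at 2.13 ± 0.63, adjusted p = 0.0778 in combined tumours, with an interaction of -7.87 ± 1.03, adjusted p = 0.00123. Of the Hox A genes 0 of 11 were called in combined tumours. The interaction was called downwards for 5, among them Hoxa10 (-8.77 ± 2.15, adjusted p = 0.037). Hoxd13 did not pass the test in combined tumours (-1.6 ± 1.26, adjusted p = 0.586, interaction 7.42 ± 1.78, adjusted p = 0.0352).

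**Figure D5:**
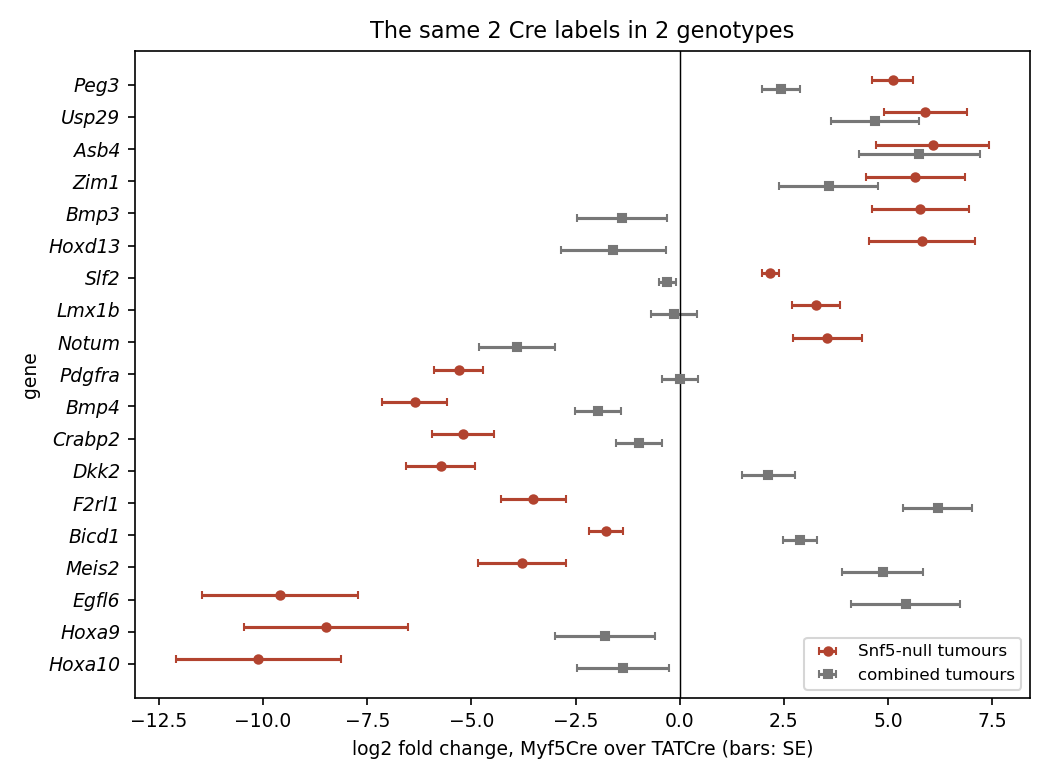
Log2 fold change of Myf5Cre over TATCre (points, bars are SE) in Snf5-null (red circles, 3 against 5 tumours) and combined tumours (grey squares, 4 against 4) for 19 genes. Peg3, Usp29 and Asb4 lie on the right in both genotypes, Asb4 in combined tumours through 2 of 4 Myf5Cre libraries, while F2rl1, Bicd1, Meis2 and Egfl6 lie on opposite sides.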

How the data were processed

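RNA was measured by stranded, poly(A)-selected RNA-seq of fresh-frozen whole tumours, per the labels' protocols. The deposited values are raw read counts per gene for 48440 gene IDs, as the values themselves show (whole numbers with unequal totals). The submitters' processing notes name STAR 2.7.5a, featureCounts, RSEM, DESeq2 and mm10 with no role, and no source used here gives the strand setting of the counting, so antisense and overlapping genes are uncertain. Symbols and positions came from GENCODE M21 (GRCm38), which matched 48058 IDs.

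All 22 libraries were grouped by title into 6 groups of genotype and Cre label. Genes were kept by edgeR's filter (minimum count 10, minimum total 15; 18929 genes, 99.91% of counts) and scaled by TMM, and 1 quasi-likelihood model was fitted over the 6 groups (edgeR 4.0.16, R 4.3.3). The contrasts were Myf5Cre minus TATCre in Snf5-null tumours, the same in combined tumours, and their difference. Code was tested on simulated data. Depth was 16059420 to 21807838 counts in the 8 Snf5-null libraries, and counting intervals and floors (95%, 3 counts) cover counting error only.

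Genes named were the 12 called genes with the largest change each way, at least 1 log2 CPM in the higher group and no overlap between groups, up to 4 per list (called genes, or the one with the lowest p), Smarcb1, Myf5, Ptprc, sex-linked genes, 5 by interaction p, and the Hox genes. Mmp12 and Igf1r, the last calls of their lists, fall outside this rule, and some items are not reported here. The 2 groups, the 42 lists and the tests were chosen with earlier results of these data known. The alternatives were median-ratio (RLE) scaling, no filter, DESeq2 1.42.0, fits of fewer libraries, each library left out, and alike pairs summed. The sum of both pairs without N1, and the RLE, unfiltered and DESeq2 fits of combined tumours, were added after the data were seen.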

Additional observations from a re-analysis of the deposited data

Results flagged for a closer look

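Of 105 genes described above, 25 had 1 TATCre library far from the other 4 on the log2 CPM scale. The rule sets apart about 1 group in 20 by chance in independent genes. These genes share the same libraries and were mostly picked for their differences, so their count cannot be set against that share. In 22 of the 25 genes the library set apart was N1, which stood apart over all genes too. Among matrix and growth factor genes N1 was low for Bmp4 at 3.91 (others 5.35 to 5.75), Crabp2 at 5.64 (others 8.48 to 9.39), Pdgfra at 6.79 (others 8.82 to 9.49), Stmn2 at 1.97 (others 6.5 to 8.22) and Fmod at 2.81 (others 8.61 to 10). It was also low for Col12a1 at 6.79 (others 10.1 to 11.1), Col16a1 at 7.47 (others 9.17 to 9.72), Tgfb3 at 6.89 (others 8.96 to 9.59), Notch3 at 3.01 (others 5.25 to 5.74) and Fgf1 at 0.104 (others 5.02 to 6.74). Among Hox and patterning genes N1 was low for Hoxa3 at -0.713 (others 1.5 to 2.4), Hoxc10 at 3.69 (others 4.97 to 5.21), Hoxc13 at -3.52 (others 2.1 to 3.82) and Hoxd8 at 1.72 (others 5.34 to 6.11). It was also low for Hoxd9 at -2.3 (others 3.28 to 4.25), Tbx15 at 4.68 (others 7.67 to 8.06) and Gsc at -3.52 (others 3.92 to 5.61). Among other genes N1 was low for Crispld1 at 1.5 (others 5.22 to 6.21), Egfl6 at -1.02 (others 5.85 to 7.66), Ism1 at 0.0242 (others 6.5 to 7.3) and F2rl1 at 2.53 (others 6.89 to 8.03). Evx2 was higher in N1, at -3.52, where the others had 0 counts (-5.12). Outside N1, Dkk2 was at 7.84 in N43L (others 6.2 to 6.52). Mmp13 was at 6.22 in N43R (others 3.72 to 4.23). Cps1 was at 0.899 in N49 (others -5.12 to -3.69).

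For 35 of these genes the Cre difference itself differed between genotypes, Snf5-null minus combined in log2 units, at an adjusted p below 0.05 for the interaction in edgeR's quasi-likelihood test. Most of the genes were picked for their Snf5-null difference, which is part of the interaction, and some by the interaction p itself. The count of 35 therefore cannot be set against the shares over all genes tested (1.1% upwards and 1.32% downwards). The Cre difference was higher in Snf5-null tumours for Peg3 (2.68), Mmp8 (5.19), Lmx1b (3.41), Slf2 (2.48), Tmem179 (7.48), Tox2 (8.66), Bmp3 (7.15) and Slc26a7 (9.73). It was also higher for Rtl1 (4.69), Ppbp (6.59), Hoxd13 (7.42), Evx2 (7.02), Notum (7.45), Notch3 (3), Aebp2 (1.28) and Hsph1 (2.27). It was lower in Snf5-null tumours for Bmp4 (-4.39), Crabp2 (-4.22), Dkk2 (-7.87), Dkk3 (-4.11), Pdgfra (-5.31), Igfbp6 (-7.92), Snrpn (-3.2), Mkx (-6.11) and Tnmd (-7.38). It was also lower for Fmod (-6.34), Hoxa2 (-6.35), Hoxa10 (-8.77), Gsc (-8.98), Meis2 (-8.66), Cyp26a1 (-6.49), Fgf18 (-5.09), Egfl6 (-15), Bicd1 (-4.66) and F2rl1 (-9.7).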

How the results depend on the processing

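No called gene reversed its direction under any alternative in which it was tested. RLE scaling (326 higher, 622 lower) and no filter (271, 508) stayed within 1.5 times the counts of 337 and 603. DESeq2 called 690 higher and 1566 lower, with 180 adjusted p values missing. With the 8 Snf5-null libraries alone 509 were higher and 613 lower. With N43L and N43R summed 185 were higher and 374 lower, with N31 and N33 summed 74 and 50, and with N1 left out and both pairs summed, an alternative chosen after seeing the data, 131 and 239. Leaving out 1 library at a time gave 66 to 877 higher and 56 to 1082 lower. The counts higher and lower were 236 and 322 without N30, 66 and 56 without N31, 82 and 56 without N33, 877 and 1082 without N1, 228 and 370 without N49, 168 and 353 without N43L, 178 and 345 without N43R, and 307 and 492 without N51. Higher genes were 35.9% of the calls, against 54.1% without N31, 59.4% without N33 and 59.7% with the pair summed. Of 94 called genes tracked one by one, 92 kept their call with DESeq2 (Odam and Snap25 did not), 78 of 93 with the 8 Snf5-null libraries alone, 93 without N1, 25 without N31 and 26 without N33. With the 8 Snf5-null libraries alone 15 of these genes lost the call. Among them were Col8a2, Cps1, Etv4, F2rl1, Fgf1, Hoxd8, Hoxd9 and Igfbp3. The rest were Meis2, Mmp13, Pdgfrb, Sox18, Tagln, Tgfb3 and Vxn. For Snap25 the DESeq2 adjusted p was missing, which was counted as no call. The cause was not tested.

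The interaction (209 higher, 249 lower) gave 656 and 838 with DESeq2, 101 and 158 with N43L and N43R summed, 45 and 34 with N31 and N33 summed, and 89 and 148 without N1 and with both pairs summed. With the 16 Snf5-null and combined libraries alone it gave 230 and 204, and over the leave-one-out fits 31 to 495 and 29 to 558. These were 126 and 176 without N30, 31 and 29 without N31, 54 and 36 without N33, 495 and 558 without N1, 137 and 172 without N49, 96 and 148 without N43L, 112 and 163 without N43R, and 142 and 200 without N51. In combined tumours (108 and 236) DESeq2 called 382 and 1081. Over the lists 75 members were called, 165 with DESeq2, 15 with N31 and N33 summed, 27 without N1 and with both pairs summed, and 14 to 134 over the leave-one-out fits.

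No paired analysis was possible because the 2 Snf5-null groups share no tag. Genes near 0 counts in a group rest on few reads at this depth.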
